A study of Mus musculus with 20 samples.

Results

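The genes described here encode the proteins of the mitochondrial ribosome in mouse ovarian antral follicles. Members were all genes that the authors kept in their count table and whose symbol starts with Mrpl (large subunit) or Mrps (small subunit) followed by a number, pseudogenes left out. This gave 78 of the 18169 kept genes, 49 of the large and 29 of the small subunit by symbol. All 78 passed the filter on low counts that left 17810 tested genes, and the smallest count of a member in any mouse was 408.

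Iodoacetic acid is a by-product of disinfecting drinking water. Female mice of the outbred CD-1 stock were given water without it (vehicle control, 10 mice) or with it at 10 mg/L (5 mice) or 500 mg/L (5 mice), for 35 days from the age of 40 days. They were 75 days old at collection, and follicles of 220 to 400 µm were taken from ovaries in diestrus, 30 to 40 per mouse, so that each library was 1 mouse. The higher dose was given in experiment 1, with control replicates 6 to 10, and the lower dose in experiment 2, with control replicates 1 to 5, a month apart. A dose therefore cannot be told apart from anything else particular to its experiment unless it is set against the controls of that experiment.

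The mitochondrial ribosome stands in the organelle's matrix and translates the few messenger RNAs that mitochondrial DNA encodes, all for subunits of the oxidative phosphorylation complexes. Its RNAs are made inside the organelle, while each of its proteins is encoded in the nucleus, made in the cytosol and imported. Some of these proteins have counterparts in bacterial ribosomes and others are found only in mitochondria. In the follicle, granulosa cells, theca cells and the oocyte all hold mitochondria, and the oocyte gathers very many of them as it grows. The libraries were made from whole follicles, so fewer cells of a type and less of an mRNA per cell cannot be told apart in any value below.

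Libraries held between 39.9 M and 67.5 M estimated counts in total (M for mega). Each of the 7 granulosa, 5 theca and 7 oocyte markers had counts in all 10 control libraries. A library stood apart: replicate 2 at 10 mg/L held 238.9 CPM (counts scaled to a common library size) of 4 RNAs that lack a poly(A) tail (Rnu1a1, Rmrp, Rpph1 and Rn7sk), where the other 19 mice held 4.6 to 22.2 CPM. The members' medians and counts at 10 mg/L are given with and without it.

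The start of each gene was first read for 3 short motifs that are known, as background, for factors acting on nuclear genes of mitochondrial proteins: ETS factors such as GABP (letters CCGGAAG), NRF1 (GCGCA, any base, then GCGC) and YY1 (AAGATGG followed directly by CGGC, and the core AAGATGG alone, which lies within the longer motif). RefSeq promoters of GRCm38.p6, 250 bases before to 50 bases after the start, were at hand for 69 of the 78 members and were searched on both strands. The ETS-type motif was present in 26 of 69 (37.7%), against 16.5% of the promoters of 13921 kept genes. The NRF1-type motif was present in 13 of 69 (18.8%), against 9.38%. The longer YY1-type motif was present in 5 (7.25%), against 1.39%, and its core in 13 (18.8%), against 7.77%. At least 1 of these motifs was found in 43 of the 69. These are matches of letters, not binding sites. No promoter entry was matched for Mrpl4, Mrpl13, Mrpl15, Mrpl19, Mrpl38, Mrpl54, Mrps28, Mrps34 and Mrps35.

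The stretches below, 5′ to 3′ on the gene's strand, belong to members that recur in the results: among those with the highest level (Mrpl12, Mrps21, Mrpl39), with the most even level between mice (Mrps23), and with the smallest p-values in a comparison (Mrpl39, Mrpl52, Mrps24, Mrpl36, Mrps7). They were chosen after the matches had been seen, and capitals mark the motif. The NRF1-type motif stands in Mrpl12 at chr11:120484513-120484612 (plus strand, motif on the other strand), in Mrpl39 at chr16:84735350-84735379 (minus strand) and in Mrps21 at chr3:95871586-95871615 (minus strand, motif on the other strand).
Mrpl12: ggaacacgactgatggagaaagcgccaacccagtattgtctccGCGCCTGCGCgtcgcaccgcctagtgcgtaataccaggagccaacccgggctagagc
Mrpl39: aaggagaggcGCGCATGCGCccccgcgtgg
Mrps21: ggaaagtccaGCGCCTGCGCtcagcaccga

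The ETS-type motif stands, on the other strand, in Mrps23 at chr11:88204393-88204422 (plus strand) and in Mrpl52 at chr14:54426799-54426898 (plus strand), where the YY1-type core stands before it.
Mrps23: gccgcttccgCTTCCGGtaacagcccgagg
Mrpl52: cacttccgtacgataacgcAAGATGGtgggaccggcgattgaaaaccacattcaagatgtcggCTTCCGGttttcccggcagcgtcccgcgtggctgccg

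The YY1-type core stands in Mrpl36 at chr13:73330970-73330999 (plus strand, motif on the other strand), in Mrps24 at chr11:5707652-5707681 (minus strand) and in Mrps7 at chr11:115604146-115604175 (plus strand).
Mrpl36: tgaccttacgCCATCTTtcttcctggcggt
Mrps24: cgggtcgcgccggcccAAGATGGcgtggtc
Mrps7: ctgacagcggccAAGATGGctgcccccgcg

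In control follicles the 78 genes lay within a narrow band of middle expression. Together they held 0.305% ± 0.00991 of a library's counts (SD, n = 10), which was 3048 ± 109 CPM. Their mean levels ran from 14.0 CPM for Mrpl55 to 70.7 CPM for Mrps21. The highest after Mrps21, which corresponds to bacterial S21, were Mrpl12 at 66.3 ± 3.87 CPM, Mrpl39 at 65.7 ± 4.01 CPM and Mrpl10 at 61.3 ± 4.77 CPM (SD, n = 10 each). Mrpl12 and Mrpl10 form the flexible stalk of the large subunit that meets the translation factors, and Mrpl39 is a large-subunit protein without a bacterial counterpart. The lowest were Mrpl55, Mrpl47 at 17.2 ± 1.19 CPM, Mrpl46 at 18.3 ± 1.96 CPM and Mrps18c at 21.1 ± 1.68 CPM. An exon of Mrps18c overlaps Gm43511 on the same strand, so its value is uncertain.

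CPM counts more reads for a longer mRNA, so levels were also divided by mRNA length (the median of the gene's protein-coding transcripts in GENCODE M21). Per kilobase, the large-subunit genes had a median of 38.5 CPM (5.12 to 114) and the small-subunit genes 30.5 CPM (5.27 to 175). The ranges overlapped except above 114, where Mrps21 alone lay. Mrps18a and Mrps30 sit in the large subunit despite their names, and Mrps36 is a subunit of the oxoglutarate dehydrogenase complex. With Mrps18a and Mrps30 moved there and Mrps36 left out, the medians were 38.5 and 29.9 CPM per kilobase. By symbol again, but with each gene's longest protein-coding transcript as its length, the medians were 29.9 for the large and 27.2 for the small subunit. The size of the gap thus depended on the length taken. Mrpl17 moved from 80.4 to 8.19 CPM per kilobase. The highest per length were Mrps21 at 174.5 CPM per kilobase, Mrpl52 at 114.2 and Mrpl33 at 88.1, all with mRNAs of under 500 bases in the annotation (405, 418 and 478). An exon of Mrpl33 overlaps Gm43809 on the same strand, which leaves its value uncertain. The lowest were Mrpl47 at 5.12, Mrps25 at 5.27 and Mrpl19 at 6.56 CPM per kilobase, whose annotated mRNAs are 3364, 6073 and 5000 bases long.

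**Figure D1:**
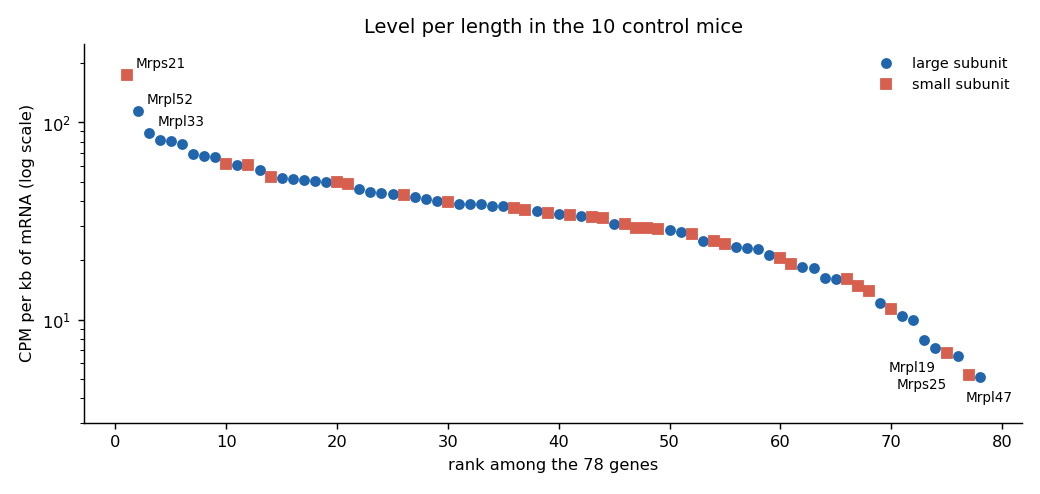
Mean level of each of the 78 genes in the 10 control mice, in CPM per kilobase of annotated mRNA (log scale), against its rank, with circles for the large and squares for the small subunit. Most genes lie within a few fold of each other, large and small subunit genes mix along the curve, and Mrps21 stands highest at 174.5.

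The members differed little between control mice. Their median coefficient of variation over the 10 controls was 7.60%. It was 10.1% for the 5968 tested genes whose mean lay in the members' range of CPM, 12.9% for 93 genes of the cytosolic ribosome and 15.9% for all tested genes. Within the controls of experiment 1 the medians were 6.74% for the members and 14.8% for the cytosolic ribosome. Within those of experiment 2 they were 5.91% and 5.82%, so the gap to the cytosolic ribosome was absent there. Over all 10 controls both subunits had nearly the same median, 7.49% for the large and 7.68% for the small. Counting alone, as the square root of the mean of 1 over the count, would give a median of 2.43%. Mrps23, a small-subunit protein found only in mitochondria, was the most even at 2.59%, close to its counting error of 2.30%: its lowest, median and highest control values were 39.2, 41.4 and 42.2 CPM. Next came Mrps18a at 3.70%, Mrpl34 at 4.55% and Mrpl58 at 4.72%. Mrpl58 is a peptidyl-tRNA hydrolase built into the large subunit.

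The least even members were Mrps10 at 21.6%, Mrpl32 at 16.3%, Mrps34 at 16.1% and Mrpl14 at 15.1%. Mrps10, a counterpart of bacterial S10, ran from 17.3 to 34.1 CPM in the controls with a median of 24.8 CPM. An exon of Mrps34 overlaps Nme3 on the same strand, so its value is uncertain. At 10 mg/L the median coefficient of variation over the members was 10.4% (7.91% without replicate 2), beside 5.91% in the controls of experiment 2. At 500 mg/L it was 7.05%, beside 6.74% in the controls of experiment 1. With replicate 2 included, tested genes in the members' range of CPM stood at 12.1% at 10 mg/L, beside 8.47% in the controls of experiment 2. All tested genes stood at 17.5% beside 13.2%, and the cytosolic ribosome at 10.5% beside 5.82%. The wider spread at 10 mg/L was thus not particular to the members.

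In some mice many members were low or high at once. The members' summed level at 10 mg/L was 3143, 2659, 3102, 2965 and 2740 CPM in replicates 1 to 5, and the controls ran from 2890 to 3200 CPM with a median of 3074. Replicates 2 and 5 lay below every control, and replicates 1, 3 and 4 lay within the control range. At 500 mg/L the sums were 2882, 3115, 3076, 2911 and 2905 CPM, with replicate 1 just below the lowest control and the rest within the range. Replicate 2 at 10 mg/L was the lowest of all 20 mice for 38 of the 78 genes, control replicate 7 for 10 and replicate 5 at 10 mg/L for 8. In contrast, replicate 1 at 10 mg/L was the highest of all mice for 17 genes and control replicate 10 for 11.

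**Figure D2:**
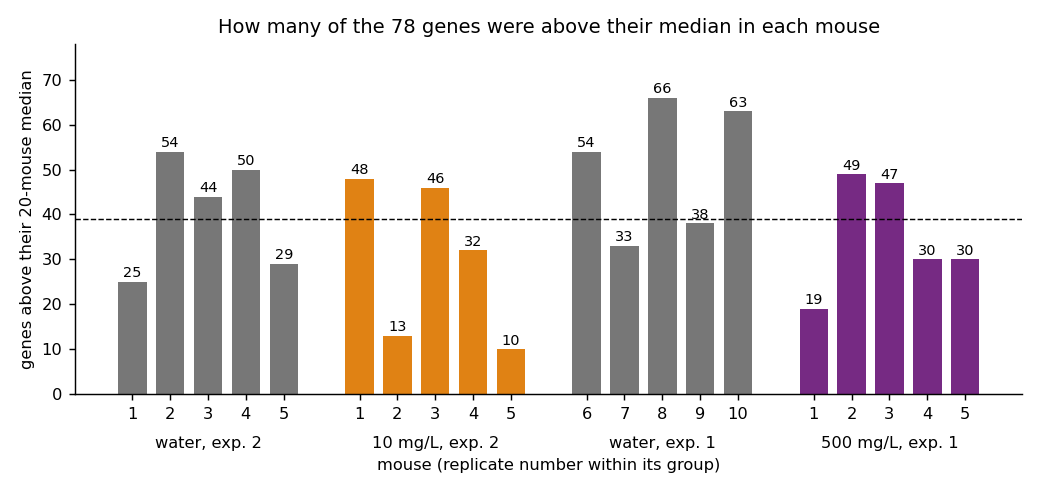
Number of the 78 genes that lay above their own median over all 20 mice (dashed line at 39, an even split), for each mouse, by group and experiment. Replicates 2 and 5 at 10 mg/L had 13 and 10 such genes, replicate 1 at 500 mg/L had 19, and control replicates 8 and 10 had 66 and 63.

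Other contents of the low libraries were read beside these sums. Besides its RNA without a poly(A) tail, replicate 2 at 10 mg/L had 4104 CPM of Lars2, the mitochondrial leucyl-tRNA synthetase, where the other 4 mice at that dose had 644 to 824 CPM. Replicate 5 at 10 mg/L had the lowest sum of the 7 granulosa markers, 5601 CPM against 7320 to 11036 CPM in the controls, and the highest sum of the 7 endothelial markers, 481 CPM against 263 to 425 CPM. Replicates 1 and 4 at 500 mg/L, in contrast, had 11379 and 11267 CPM of granulosa markers and low sums of members. Replicate 5 at 500 mg/L also had a low sum of members, 2905 CPM. It had 6267 CPM of granulosa markers, below every control, and 423 CPM of endothelial markers. The part of these contents in the members' levels was not tested.

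The difference between the subunits was nearly the same in every group. The mean log2 CPM over the large-subunit genes exceeded that over the small-subunit genes by 0.0981 ± 0.0275 in the controls (SD, n = 10), by 0.105 ± 0.0294 at 10 mg/L (n = 5) and by 0.101 ± 0.0355 at 500 mg/L (n = 5). Single mice ran from 0.0593 to 0.146 in the controls, from 0.0809 to 0.155 at 10 mg/L and from 0.0497 to 0.136 at 500 mg/L, so the groups overlapped over most of their ranges. The 2 control sets gave 0.0947 ± 0.0300 (experiment 1) and 0.102 ± 0.0278 (experiment 2). In replicate 2 at 10 mg/L, the lowest mouse, both subunits were low together.

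**Figure D3:**
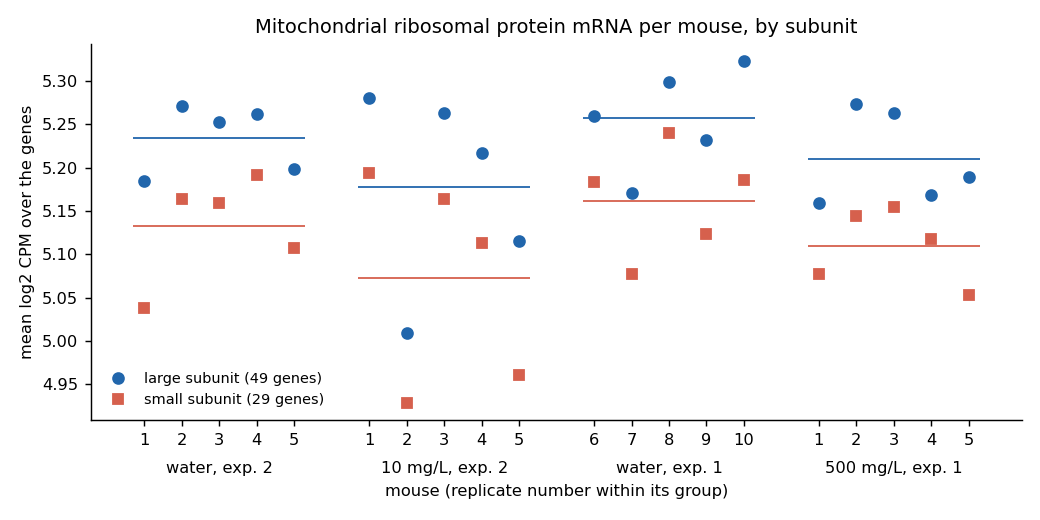
Mean log2 CPM over the 49 large-subunit genes (circles) and the 29 small-subunit genes (squares) in each mouse, with lines at the mean of the 5 mice of each set. The pair of points moves together from mouse to mouse, at a mean distance of 0.0981 in the controls, 0.105 at 10 mg/L and 0.101 at 500 mg/L.

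The first comparison set the mice at 10 mg/L against all 10 controls, as the submitters combined them. No member passed the test of all genes (edgeR's quasi-likelihood test with Benjamini-Hochberg adjustment, smallest adjusted p = 0.633), where 0.00561% of all tested genes, 1 gene, passed. DESeq2, limma-trend and limma-voom also called 0 members here and at 500 mg/L. The levels leaned downwards: 63 of 78 members had a log2 change below 0, against 50.1% of all tested genes, and the median was −0.07 (all genes −0.00039). At an unadjusted p under 0.05 there were 11 members lower and 0 higher, 5 of the large and 6 of the small subunit, against 3.14% of all tested genes lower and 3.08% higher. Without replicate 2 at 10 mg/L the median was −0.03, 50 members were below 0 and 4 had an unadjusted p under 0.05. Leaving out control replicate 6, 8 or 10 instead left 6, 5 and 6 such members. The median was −0.07 for each subunit taken alone.

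Markers of some other cells stood higher in the same comparison, though none passed. The leukocyte markers did not, with 3 above and 3 below 0 (median 9.2e-05). Nor did the smooth muscle and pericyte markers, also 3 above and 3 below (median −0.03). All 7 endothelial markers had a log2 change above 0 (median 0.36, 5 at an unadjusted p under 0.05), and 0.38 without replicate 2. Their sum ran from 328 to 481 CPM at 10 mg/L and from 263 to 425 CPM in the controls. All 5 luteal markers were above 0 as well (median 0.70), with sums of 3032 to 7443 CPM against 3324 to 7638 CPM. Without replicate 2, 4 luteal markers were above and 1 below 0. The 5 red cell markers were all above 0 too (median 0.64, and 0.36 without replicate 2). No endothelial or luteal marker was at 0 in any mouse. The 4 RNAs without a poly(A) tail had a median of 4.03, and of 0.27 without replicate 2. Against the controls of experiment 2 the medians were 0.33 for the endothelial markers (all 7 above 0, 6 at an unadjusted p under 0.05) and 1.67 for the luteal markers (all 5 above 0). Without replicate 2, 3 of the 7 endothelial markers had an unadjusted edgeR p under 0.05 there. The part of these contents in the members' levels was not tested.

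The member with the smallest p was Mrpl39. Its values at 10 mg/L were 60.9, 53.4, 59.8, 58.3 and 52.4 CPM in replicates 1 to 5, and the controls ran from 58.9 to 72.2 CPM with a median of 65.9 CPM. At 10 mg/L 3 mice lay below every control, and the groups overlapped through replicates 1 and 3. The log2 change was −0.21 (SE 0.05; unadjusted p = 0.00073, edgeR adjusted p = 0.633), and −0.18 without replicate 2. In the authors' deposited table this gene had a fold change of −1.15 (lower) and an adjusted p of 0.0430 at 10 mg/L.

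Mrps24, the counterpart of bacterial S3 at the mRNA entry of the small subunit, stood at 31.4, 29.5, 33.0, 34.1 and 31.2 CPM at 10 mg/L. Its controls ran from 32.9 to 40.8 CPM with a median of 35.6 CPM, and 3 of the 5 exposed mice lay below them all. Its log2 change was −0.20 (edgeR, SE 0.06, adjusted p = 0.633). An exon of Mrps24 overlaps Urgcp on the same strand, so the value is uncertain. Mrpl49, a large-subunit protein without a bacterial counterpart, stood at 41.7, 34.6, 38.8, 42.0 and 37.8 CPM against 39.8 to 47.4 CPM (median 44.6), with a log2 change of −0.18 (edgeR, SE 0.05, adjusted p = 0.633). Mrps25, a small-subunit protein of the same kind, stood at 28.9, 26.8, 28.3, 31.6 and 25.8 CPM against 28.2 to 34.7 CPM (median 32.4), with a log2 change of −0.18 (edgeR, SE 0.06, adjusted p = 0.688). For both, the groups overlapped.

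Among members above 0 at 10 mg/L, none reached an unadjusted p under 0.05. Mrps23, the most even member in the controls, stood at 47.6, 46.3, 42.3, 42.5 and 38.9 CPM, so that 4 of 5 exposed mice lay above its highest control of 42.2 CPM and replicate 5 lay below its lowest of 39.2 CPM. Its log2 change was 0.09 (edgeR, SE 0.05, adjusted p = 0.820). The next were Mrpl37 and Mrps11 at 0.06 each and Mrpl3, the counterpart of bacterial L3, at 0.04. Without replicate 1 at 10 mg/L the changes of Mrps23, Mrps11 and Mrpl3 were 0.06, −0.01 and 0.0043, so the sign of Mrps11 rested on that mouse. Without replicate 2 Mrps11 stood at 0.13. An exon of Mrpl3 overlaps Gm38077 on the same strand.

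At 500 mg/L, against the same 10 controls, no member passed either (smallest edgeR adjusted p = 0.359), with 0.0112% of all tested genes called. There were 47 members with a log2 change below 0, against 50.1% of all genes, and the median was −0.04, at −0.04 for the large and −0.05 for the small subunit. At an unadjusted p under 0.05, 5 members were lower and 0 higher, against 4.18% of all tested genes lower and 4.51% higher. There were 9 such members when control replicate 7 was left out and 11 when the second 500 mg/L mouse (replicate 2) was. As both comparisons use the same controls, a low or high control set moves both.

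Mrpl36, the counterpart of bacterial L36 and among the smallest proteins of the large subunit, had the smallest p. Its values at 500 mg/L were 23.4, 23.6, 24.2, 23.8 and 22.6 CPM. All 10 controls lay above them, from 25.3 to 30.9 CPM with a median of 27.2 CPM. It was the 1 member whose groups did not overlap, where 0.168% of all tested genes had every exposed mouse below every control. The log2 change was −0.23 (SE 0.07; unadjusted p = 0.00508, edgeR adjusted p = 0.359), and the authors' deposited table gave a fold change of −1.17 with an adjusted p of 0.0424. At 10 mg/L Mrpl36 stood at 30.1, 21.0, 29.7, 26.3 and 24.5 CPM, on both sides of the control median.

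Mrps7, the counterpart of bacterial S7 in the head of the small subunit, stood at 42.5, 44.4, 42.1, 44.2 and 41.8 CPM at 500 mg/L. Its controls ran from 44.0 to 52.6 CPM with a median of 48.7 CPM, so that 3 exposed mice lay below all controls and 2 within their lowest edge. The log2 change was −0.19 (edgeR, SE 0.06, adjusted p = 0.359). Mrpl28, the counterpart of bacterial L28, stood at 47.8, 50.2, 49.99, 43.2 and 43.8 CPM against 46.6 to 57.6 CPM (median 54.5), with a log2 change of −0.18 (edgeR, SE 0.07, adjusted p = 0.458). Set only against its 5 own controls it stood at −0.10, and the control sets differed by −0.15. The authors' deposited table gave Mrpl28 a fold change of −1.14 and an adjusted p of 0.0342. For Mrps6, the counterpart of bacterial S6, the exposed mice had 27.1, 22.7, 20.4, 25.3 and 24.97 CPM against 23.6 to 34.5 CPM (median 30.0). Its log2 change was −0.29 (edgeR, SE 0.11, adjusted p = 0.472), or −0.23 against the controls of experiment 1, and the authors' deposited table gave −1.20 and 0.0497. Exons of Mrps6 overlap Slc5a3 and Gm49711 on the same strand, which leaves its value uncertain.

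Above 0 at 500 mg/L, the members with the smallest p were Mrps9 at a log2 change of 0.16 (edgeR, SE 0.08, adjusted p = 0.590), Mrpl42 at 0.10, Mrpl32 at 0.14 and Mrps5 at 0.08. Mrps9 and Mrps5 correspond to bacterial S9 and S5, and Mrpl32 is known as a protein that a membrane protease must cut before it joins the ribosome. Against the 5 controls of experiment 1 alone these changes were 0.05, 0.06, −0.01 and 0.02, so that each was smaller and that of Mrpl32 turned its sign.

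**Figure D4:**
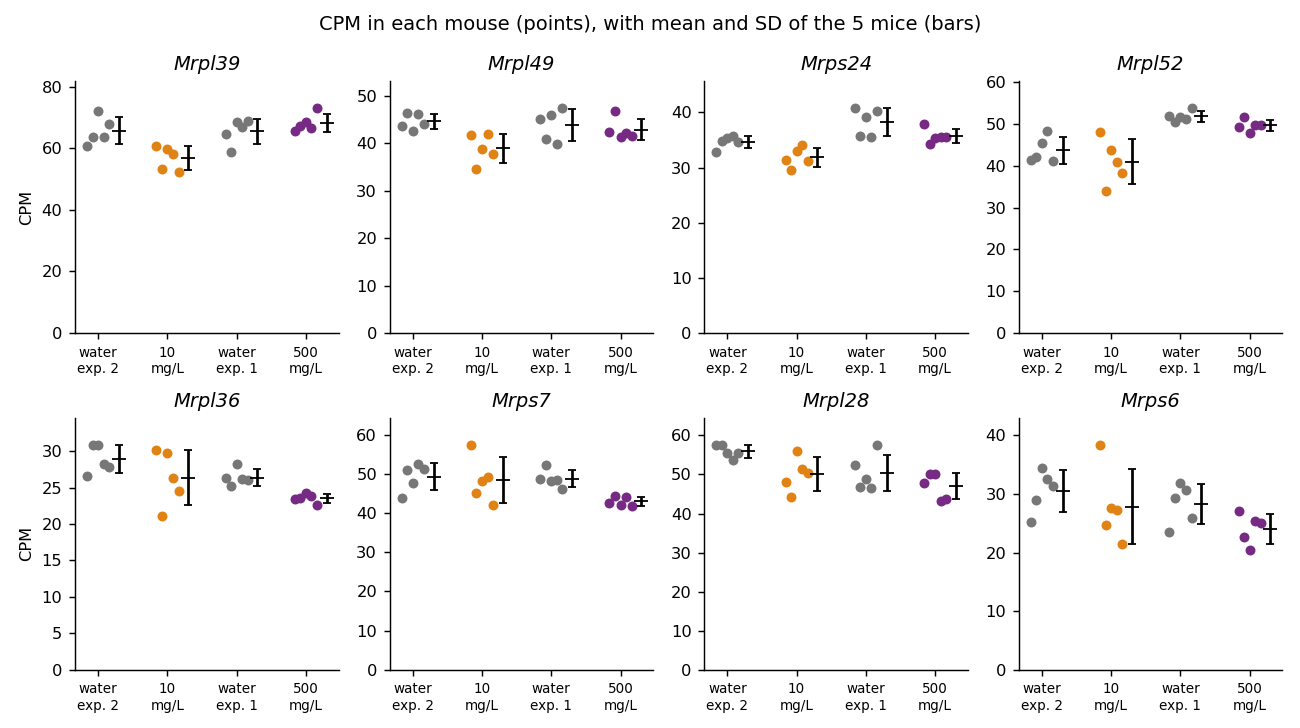
CPM of 8 members in each mouse (points), with mean and SD of the 5 mice of each set (black bars). The upper row has Mrpl39, Mrpl49 and Mrps24, among the smallest p at 10 mg/L, and Mrpl52, called there in the authors' deposited table. The lower row has the members of smallest p at 500 mg/L. Mrpl39 has 56.9 ± 3.83 CPM at 10 mg/L and 68.3 ± 2.89 at 500 mg/L, Mrpl36 has 23.5 ± 0.583 at 500 mg/L below all controls, and Mrpl52 differs between the control sets at 43.6 ± 3.14 and 51.8 ± 1.25.

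The authors' deposited table called 5 members at an adjusted p under 0.05, all lower. At 10 mg/L these were 2 of 78, Mrpl39 and Mrpl52 (fold change −1.17, adjusted p = 0.0400), where 0.611% of the 18169 genes in that table were called. At 500 mg/L they were 3 of 78, Mrpl36, Mrpl28 and Mrps6, where 1.26% were called. Mrpl52, which encodes a large-subunit protein found only in mitochondria, gave values that depended on the control set. Its log2 change at 10 mg/L was −0.22 against all controls and −0.09 against those of experiment 2, and the control sets themselves differed by 0.25.

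Next, only mice of the same experiment were compared. At 10 mg/L against its 5 own controls no member passed (smallest edgeR adjusted p = 0.565), and 0% of all tested genes were called by edgeR (1148 had an unadjusted p under 0.05, and DESeq2 called 31). There were 57 members with a log2 change below 0, against 49.9% of all genes, and the median was −0.05, at −0.04 for the large and −0.07 for the small subunit. At an unadjusted p under 0.05, 4 were lower and 0 higher, against 2.66% of all tested genes lower and 3.78% higher. Without replicate 2 at 10 mg/L the median was −0.02, with 47 members below 0 and 2 at an unadjusted p under 0.05. Leaving out control replicate 2 also reduced it, to −0.03. The 4 members became 2 without control replicate 2 or 3, and 9 without replicate 1 at 10 mg/L.

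Mrpl39 again had the smallest p in experiment 2, with a log2 change of −0.21 (edgeR, SE 0.06, adjusted p = 0.565). Its 5 own controls had 60.9, 63.6, 63.8, 68.1 and 72.2 CPM in ascending order, and the highest exposed value of 60.9 CPM met the lowest of them. Mrpl49 was the 1 member whose exposed mice all lay below their own controls, which had 42.6, 43.7, 44.1, 46.2 and 46.3 CPM, where 0.545% of all tested genes did so. Its log2 change was −0.19 (edgeR, SE 0.06, adjusted p = 0.644). Mrpl28 followed at −0.16 and Mrps24 at −0.12. Above 0, Mrps23 stood at 0.11 (edgeR, SE 0.06, adjusted p = 0.792), Mrpl27 at 0.08, and Mrpl40 and Mrpl19 at 0.07. Each of these 3 moved by over 1.5 times with a mouse left out: Mrpl27 was at 0.04 without replicate 5 at 10 mg/L, Mrpl19 at 0.01 without replicate 1, and Mrpl40 at 0.12 without replicate 2 and 0.04 without replicate 4.

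In experiment 1, with the 500 mg/L mice set against their own 5 controls, the smallest edgeR adjusted p of a member was 0.954, and 0% of all tested genes were called by edgeR (924 had an unadjusted p under 0.05, and DESeq2 called 5). There were 57 members below 0, against 49.5% of all genes, with a median of −0.04 over the members and over each subunit. At an unadjusted p under 0.05, 3 were lower and 0 higher, against 2.46% of all tested genes lower and 2.73% higher. When control replicate 8 or 10 was left out the median was −0.02 and −0.03, and it was −0.07 when the second exposed mouse (replicate 2) was. The count of 3 became 6 without control replicate 6 or replicate 1 at 10 mg/L, and 5 without control replicate 7 or 10, replicate 2 or 3 at 10 mg/L, or replicate 1 or 3 at 500 mg/L; mice at the other dose enter through the shared estimate of spread. All 6 leukocyte markers lay below 0 here (median −0.46), and all 7 oocyte markers (0.19) and 5 red cell markers (1.11) above it. None passed, and their part in the members' levels was not tested.

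Mrpl50, a large-subunit protein without a bacterial counterpart, stood at 44.3, 42.1, 40.7, 39.8 and 37.0 CPM, and its own controls had 42.6, 44.4, 44.9, 46.6 and 52.1 CPM. Only replicate 1 lay above the lowest of these controls. The log2 change was −0.18 (edgeR adjusted p = 0.954). For Mrps7 all exposed mice lay below the own controls, which had 46.1, 48.3, 48.5, 48.8 and 52.2 CPM, and for Mrpl36 likewise, with own controls at 25.3, 26.0, 26.1, 26.2 and 28.3 CPM. These were 2 of 78 members without overlap, where 0.477% of all tested genes had every exposed mouse below its controls. Their log2 changes were −0.18 for Mrps7 and −0.17 for Mrpl36. Mrpl20, an early-binding protein of the large subunit in bacteria, stood at −0.17 and Mrpl46 at −0.19, the latter at −0.13 without control replicate 9. Above 0 were Mrpl45, a protein that ties the ribosome to the inner membrane, at 0.08, Mrpl39 and Mrpl42 at 0.06 and Mrpl9 at 0.05. Without control replicate 7 these 4 were at 0.04, 0.02, 0.0076 and 0.0084, and Mrpl9 was at 0.0037 without replicate 3 at 500 mg/L.

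These own-control comparisons share no mouse, so their directions can be set side by side. A log2 change below 0 in both was found for 42 of 78 members, above 0 in both for 6, and opposite signs for 30, in equal numbers of 15 each way. Over all tested genes 25.5% were below 0 in both. As 57 of the 78 members were below 0 in each comparison, a number near 42 would be reached even with unrelated directions. The 42 therefore does not show that the same members fell in both experiments. The count was 35 without replicate 2 at 10 mg/L and also without replicate 1 at 500 mg/L, and ran from 35 to 49 over all mice left out in turn. It was 34 with libraries scaled by their upper quartile.

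**Figure D5:**
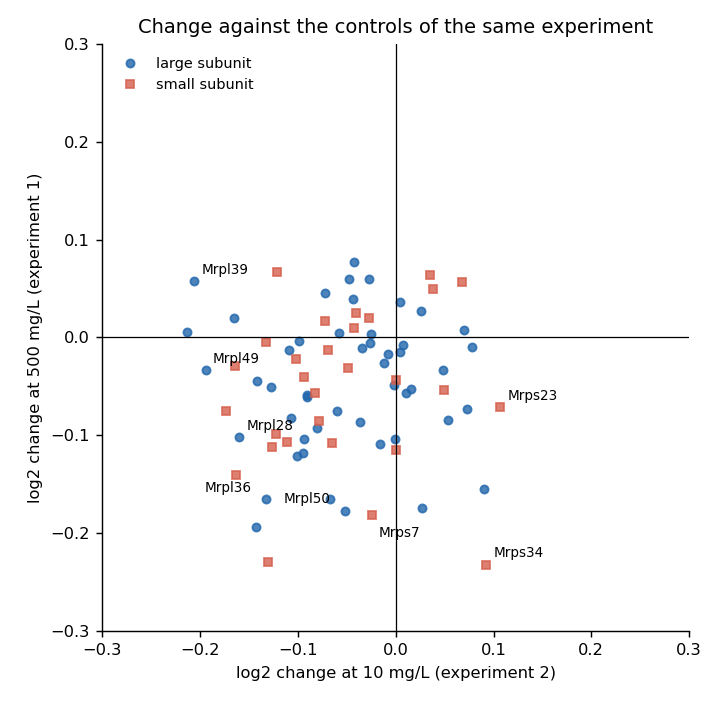
Log2 change of each of the 78 genes at 10 mg/L (x axis) and at 500 mg/L (y axis) against the 5 controls of the same experiment, with circles for the large and squares for the small subunit. The lower left part holds 42 genes and the upper right 6, all changes are under 0.3 in size, and no gene passed in either comparison.

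The doses were then compared through the difference between their own-control effects. No member passed (smallest edgeR adjusted p = 0.848) and 0% of all tested genes were called by edgeR (964 had an unadjusted p under 0.05, and DESeq2 called 15). The median difference was 0.01 (−0.03 to 0.03 over mice left out), beside 0.00836 over all tested genes, and 36 members lay below 0, against 48.2% of all genes. At an unadjusted p under 0.05 there were 1 lower and 1 higher, against 3.38% of all tested genes lower and 2.03% higher, and the 1 lower became 0 to 3 over mice left out. The higher one was Mrpl39, at 0.26 (edgeR, SE 0.09, unadjusted p = 0.00581, adjusted p = 0.848). Its own-control changes were −0.21 at 10 mg/L and 0.06 at 500 mg/L. Its 500 mg/L mice had 65.8, 67.2, 68.6, 66.7 and 73.1 CPM. The controls of experiment 1 had 64.8, 58.9, 68.6, 66.9 and 68.8 CPM. The lower one was Mrps23, at −0.18 (edgeR, SE 0.08, adjusted p = 0.911), with 39.04, 42.6, 40.8, 38.5 and 36.2 CPM at 500 mg/L. Mrps34 stood at −0.32, Mrpl40 at −0.15 and Mrps7 at −0.16 (−0.10 without replicate 1 at 10 mg/L), and Mrpl49 at 0.16, Mrps25 at 0.13 and Mrpl45 at 0.12.

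The control sets of the experiments, both without iodoacetic acid, were compared last. Log2 differences of members ran from −0.25 to 0.33 there, with 5 mice against 5. At 500 mg/L against all controls they ran from −0.29 to 0.16, with 5 mice against 10. As the group sizes are unlike, these ranges do not show whether experiment or dose moved the members more. With experiment 1 set against experiment 2, no member passed (smallest edgeR adjusted p = 0.179), where 0.157% of all tested genes did. There were 45 members above and 33 below 0, against 49.7% of all genes below, with a median of 0.02. At an unadjusted p under 0.05, 11 members were higher in experiment 1, against 5.24% of all tested genes, and 4 lower, against 4.54%. The 4 became 1 without control replicate 2, 3 or 7 and 2 without control replicate 4, 6 or 9, and the 11 ran from 8 to 14 over mice left out. All 5 luteal markers (median 1.40), 6 leukocyte markers (0.49) and 6 smooth muscle and pericyte markers (0.19) were also higher in experiment 1. All 7 oocyte markers (−0.30) and 5 red cell markers (−0.38) were lower. None of these passed, and their part in the members' levels was not tested.

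Mrpl40, a large-subunit protein without a bacterial counterpart, had 32.2, 32.7, 33.6, 34.9 and 37.2 CPM in the controls of experiment 1 and 27.9, 28.2, 28.97, 29.1 and 30.0 CPM in those of experiment 2. The sets did not overlap. Its log2 difference was 0.24 (edgeR, SE 0.06, adjusted p = 0.179), and DESeq2 alone among the tests run called it, at 0.25 with an adjusted p of 0.0225. Mrpl52 had 50.4, 51.2, 51.7, 51.9 and 53.8 CPM against 41.1, 41.4, 42.0, 45.5 and 48.3 CPM, also without overlap, with a log2 difference of 0.25 (edgeR, SE 0.07, adjusted p = 0.240). Mrps15, the counterpart of bacterial S15, stood at 0.20 and Mrpl32 at 0.30, the former without overlap. In all, 5 members lay wholly higher in experiment 1 (Mrpl40, Mrpl52, Mrps15, Mrpl43 and Mrpl27), where 1.44% of all tested genes did, and Mrpl37 lay wholly lower, where 1.66% did. Below 0, the smallest p belonged to Mrpl3 at −0.15, Mrpl37 at −0.13, Mrps14 at −0.17 and Mrpl28 at −0.15.

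The 3 members whose symbol does not tell their place showed no log2 change over 0.13 in size in any comparison, and none passed. Mrps18a stood between −0.03 and 0.05, and Mrps30 between −0.10 and 0.08. Mrps36 stood at −0.12 at 10 mg/L and −0.11 at 500 mg/L against all controls, and at −0.13 and −0.11 against its own.

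Genes that work with the mitochondrial ribosome were read from 5 lists, of which every gene was tested and none passed in any of the 6 comparisons by edgeR. Of the 5 ribosomal proteins without an Mrp symbol, 2 were below 0 at 10 mg/L and 4 at 500 mg/L against all controls, with medians of 0.01 and −0.02. Aurkaip1, a protein of the small subunit, was at −0.17 at 500 mg/L (edgeR, SE 0.05, adjusted p = 0.325), with 32.0, 35.6, 32.7, 35.4 and 34.7 CPM in the exposed mice, all below its lowest control of 36.0 CPM. Gadd45gip1, a protein of the large subunit, was at −0.14 at 10 mg/L and Chchd1, of the small subunit, at −0.20. Without replicate 2 at 10 mg/L these were −0.21 and −0.06, so most of the value of Chchd1 came from that library, where it had 19.3 CPM and the other 4 mice 33.0 to 40.3 CPM.

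Of 25 factors for assembly and modification of the ribosome's RNA, 12 were below 0 at 10 mg/L and 16 at 500 mg/L, with medians of 0.00 and −0.02. The smallest p at 500 mg/L belonged to Eral1, a chaperone of the small-subunit RNA, at −0.23 (edgeR, SE 0.07, adjusted p = 0.360), the helicase Ddx28 at −0.19 and the GTPase Gtpbp10 at 0.25. Rbfa, a factor that binds the small subunit during its maturation, had 44.0 to 49.2 CPM in the controls of experiment 1 and 32.4 to 39.5 CPM in those of experiment 2, a log2 difference of 0.35 (edgeR, SE 0.09, adjusted p = 0.150).

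Of 15 translation factors, 8 and 7 were below 0 at the lower and higher dose, with medians of −0.01 and 0.00. Mtrf1l, a release factor, was at −0.22 at 10 mg/L (edgeR, SE 0.07, adjusted p = 0.692), and the initiation factor Mtif2 was at 0.17 at 500 mg/L (edgeR, SE 0.07, adjusted p = 0.470). Of 17 mitochondrial aminoacyl-tRNA synthetases, 11 were below 0 at each dose, with medians of −0.07 and −0.03. Yars2, for tyrosine, was at −0.20 at 500 mg/L (edgeR, SE 0.07, adjusted p = 0.364). Lars2 was at 1.28 at 10 mg/L (edgeR, SE 0.33, adjusted p = 0.633), and at 0.29 without replicate 2, the mouse with 4104 CPM. Its controls had 588 to 689 CPM in experiment 2 and 422 to 557 CPM in experiment 1, so the value against all controls also holds that gap. Of 8 genes for transcription and replication of mitochondrial DNA, 6 and 5 were below 0, with medians of −0.02 each, and the helicase Twnk at −0.12 had the smallest p at 10 mg/L (edgeR adjusted p = 0.831).

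The proteins of the cytosolic ribosome, 93 tested genes, were read beside the members. Against all controls 38 were below 0 at 10 mg/L and 45 at 500 mg/L, with medians of 0.03 and 0.01. Against own controls 72 were below 0 at 10 mg/L (median −0.05) and 20 at 500 mg/L (median 0.08). The members had 57 of 78 below 0 in each, with medians of −0.05 and −0.04. The lean at 10 mg/L within experiment 2 was thus seen in both gene sets. Between the control sets 77 were lower in experiment 1, with a median of −0.17 and 2 genes past the test, where the mitochondrial set had a median of 0.02. Whether the gene sets differ in these respects was not tested.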

How the data were processed

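RNA from the antral follicles of 20 mice was made into poly(A)-selected, stranded libraries and sequenced for 101 cycles from 1 end, per the labels' protocols. Per the submitters' processing notes, the tools were Salmon 1.2.0, FastQC 0.11.8, R 4.1.2, limma and edgeR, with the build GRCm39. Of the annotation and of the summing of transcripts to genes, the sources used here give nothing. The main deposited table has expected counts per gene from the authors, not normalised, in which genes of like sequence can share reads; they were rounded to whole numbers. A second deposited table of the authors' own results gives average log2 expression, p-values (raw and adjusted), an F score and signed linear fold changes per gene, per the file headers, and was used only for values named as from the authors' deposited table.

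Tests used edgeR 4.0.16 in R 4.3.3 (expression filter by group, TMM scaling, robust quasi-likelihood F-test, two-sided, Benjamini-Hochberg adjustment over 17810 genes at 0.05). All 20 mice were fitted with 1 mean per group, and for comparisons within an experiment with 1 mean per group and experiment, which the column headers name. SE is from the F statistic. CPM use TMM-scaled library sizes, and mean log2 CPM a prior count of 2. Pairs of mice within a group (65 pairs) showed no duplicate library, with a smallest chi-square per gene of 22.0. Over the controls, 69 of 78 members had a coefficient of variation over 2 times their counting error.

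The members, lists and motifs were chosen with earlier results of these data known. Named members were, in each comparison, the 4 per direction with the smallest p, any that passed, the 4 highest and 4 lowest in level and in variation over the controls, and Mrps18a, Mrps30 and Mrps36, and up to 3 genes of each pathway list by p. Members named for lack of overlap or for a call in the authors' table were added after values were seen. Promoters are RefSeq's for GRCm38.p6 and lengths are from GENCODE M21, matched by symbol, and neither is in the coordinates of the counts' build. Alternatives were other scalings, filters and tests (DESeq2 1.42.0, limma 3.58.1), only the mice compared, replicate number as a block, libraries left out, and the subunit split. The scripts were tested on simulated data.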

Additional observations from a re-analysis of the deposited data

Results flagged for a closer look

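Values of 41 named members and summaries of all members per mouse gave 138 groups. Of these, 4 held a mouse whose gap to its nearest neighbour was large for the range of its group. Chance gives about 1 in 20, a larger share than 4 of 138. Mrpl19 had 39.0 CPM in replicate 1 at 10 mg/L, with the next value at 32.5 CPM. Mrpl32 had 43.1 CPM in control replicate 10, with the next at 35.1 CPM. Mrpl45 was low in replicate 1 at 500 mg/L, at 38.1 CPM with the next at 42.3 CPM. Mrpl49 was high in replicate 2 at 500 mg/L, at 46.7 CPM with the next at 42.3 CPM. None of the 4 comes from replicate 2 at 10 mg/L.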

How the results depend on the processing

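The members' median and the count below 0 kept their direction at both doses, against all and against own controls, under every alternative and every mouse left out. For the control sets (lowest −0.01, without control replicate 8) and the difference between doses (−0.03 to 0.03 over mice left out) the sign of the median did not hold. No member was called under any alternative except Mrpl40 between the control sets by DESeq2 (1 member, log2 0.25, adjusted p = 0.0225). At 10 mg/L against all controls edgeR called 1 gene of all tested. It was 0 with upper-quartile factors, without the filter, with limma-trend or limma-voom, with the replicate block or without the 2 doubted libraries (replicate 2 at 10 mg/L and replicate 5 at 500 mg/L), 8 with DESeq2, and 0 to 1 over mice left out. At 500 mg/L against all controls the 2 genes became 86 with DESeq2, 0 with limma-trend or limma-voom, 17 with the replicate block, 1 without these libraries, and 0 to 3 over mice left out. DESeq2 called 31 and 5 against own controls and 15 for the difference, where edgeR called 0. Between the control sets the 28 genes became 11 without the filter, 48 at a filter of 1 CPM in 5 mice, 192 with DESeq2, 9 with only the mice compared, and 3 to 50 over mice left out. The cause of these moves was not tested. With the replicate block, Mrpl37 and Mrpl3 turned from 0.06 and 0.04 to −0.0105 and −0.0344 at 10 mg/L against all controls. Mrps11 ran from −0.00713 to 0.13 there over mice left out. In the block fits against all controls, each control of experiment 1 had a replicate number of its own. Those mice were fitted exactly and added nothing to the comparison. The block fits thus rested on the controls of experiment 2, so at 500 mg/L they mixed dose with experiment. Same-numbered controls and 10 mg/L mice deviated with a correlation of −0.128 to 0.0879, so the numbers do not pair the mice; controls of experiment 1 share no number with the 500 mg/L mice, so that comparison had no block. The subunit difference held its size within the spread between mice under each split and scaling. No scaling moved the median of all genes by over 0.02. Counting error was 1.76% to 3.95% for a member's level in the controls, which is most of the spread of Mrps23 and a smaller part of that of the others.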
